A study of Homo sapiens with 6 samples.

Results

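The Hippo pathway and the genes that its co-activators YAP and TAZ switch on were followed through RNA sequencing of cultured MDA-MB-468 cells. This established human line derives from a breast cancer of the basal-like kind, which lacks hormone receptors and HER2 amplification. The set held 35 genes, listed by symbol, of the 31122 in the count table. It comprised the co-activator genes YAP1 and WWTR1, 4 TEAD genes, 3 VGLL genes, 7 genes of the core kinase cassette, 8 upstream regulators and 11 target genes. All 35 were in the table, under the older symbols CYR61 and CTGF for the genes now called CCN1 and CCN2, and all 35 had enough counts to be tested.

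Of 6 libraries, 3 came from MDA-MB-468 populations labelled GPR52 KO and titled 11, 12 and OG. They were made with CRISPR-Cas9 and a single guide RNA (sgRNA1) against GPR52, an orphan receptor that raises cAMP, and indels at the target were read by Sanger sequencing, per the series' design text. The other 3 came from unedited parental cells labelled WT and titled W1, W2 and W3, which were wells of 1 plate. The labels name no non-targeting control and do not say whether the edited populations were clones or pools, so guide, selection and time in culture cannot be told apart from the label. The design text states the question as the effect of GPR52 loss.

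The transcript of the targeted gene was not lower under the KO label. GPR52 had 645, 694 and 724 counts in the KO-labelled populations, against 9, 1 and 0 counts in the parental-labelled wells, so its transcript was higher under the KO label (log2 fold change 7.70, SE 0.35). It had enough counts to be tested only in the KO-labelled group. The libraries labelled KO thus show no loss of the transcript. Whether the labels are exchanged, or the edit or a vector raised the transcript, was not tested. Exchanged labels would reverse the sign of each difference below, and the others could change what it means. Counts do not show whether the transcript encodes a working receptor. The groups are called KO-labelled and parental-labelled, and directions follow the label only. Total counts were 25983764 to 27956600 in KO-labelled and 25637794 to 31692454 in parental-labelled libraries. The first principal component (78.9% of the variance) separated the groups, and the second (11.0%) set population OG apart.

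The markers listed for the line were detected in both groups, but 6 of the 11 differed, 4 higher and 2 lower in KO-labelled libraries. That is 54.5%, against 40.8% of all genes tested (36.4% higher, against 21.0%, and 18.2% lower, against 19.8%). EGFR averaged 5931 ± 2065 CPM (the count scaled to a common library size, with TMM factors) in KO-labelled and 5114 ± 220.3 CPM in parental-labelled libraries, and KRT5 averaged 1707 ± 338 and 1201 ± 49.2 CPM (SD, n = 3 each, as throughout). The basal keratin genes KRT14 and KRT6B were 3.72-fold and 8.53-fold higher in KO-labelled libraries. The luminal keratin gene KRT18 and the E-cadherin gene CDH1 were lower, at log2 fold changes of -0.46 and -0.42. EPCAM, another epithelial gene, went the other way, at 0.46. The basal keratin gene KRT17 (0.04) and the luminal keratin gene KRT8 (-0.37) were not among the 6. KRT17 had 40.9 ± 11.7 and 39.9 ± 5.09 CPM but 223 ± 63.3 and 244 ± 13.9 FPKM in KO-labelled and parental-labelled libraries. KRT5 had 693 ± 153 and 486 ± 21.2 FPKM, so the counts of KRT17 may not give its level. The oestrogen receptor gene ESR1 was low, at 2.79 ± 1.09 and 9.38 ± 0.728 CPM. Of other cell types' markers, 4 of 6 fibroblast genes and 4 of 5 leukocyte genes stayed under 1 CPM in every library. One of these, CD68, had 0 to 2 counts but 2.77, 9.25 and 8.49 FPKM in KO-labelled and 3.79, 4.52 and 4.08 FPKM in parental-labelled libraries, so its counts do not give its level. Their summed levels still differed, at 24.6 to 31.99 CPM in KO-labelled and 9.06 to 11.3 CPM in parental-labelled libraries for the fibroblast list, led by COL1A1 (25.5 ± 2.12 and 7.31 ± 0.881 CPM). The leukocyte list summed to 2.54 to 4.07 and 27.3 to 37.1 CPM, led by CD14 (3.45 ± 0.888 and 30.7 ± 5.38 CPM). Of 3 endothelial genes 1 stayed under 1 CPM in every library. That list summed to 3.18 to 7.28 and 3.69 to 4.22 CPM, so the groups overlapped. Of its 3 genes 1, CDH5, differed (33.3%, against 40.8% of all genes), at a log2 fold change of -1.38. The part of these levels in the results below was not tested, and in bulk RNA fewer cells of a type and less RNA per cell cannot be told apart.

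The Hippo pathway is a chain of kinases that holds back tissue growth. The kinases MST1 and MST2 (genes STK4 and STK3), with the scaffold SAV1, activate the kinases LATS1 and LATS2, with MOB1 as their partner, and these phosphorylate YAP and TAZ so that they leave the nucleus or are degraded. When the kinases are quiet, as in spread cells under tension, YAP and TAZ bind TEAD transcription factors and raise genes such as CYR61, CTGF and ANKRD1. Several pathway inhibitors, LATS2, AMOTL2 and PTPN14 among them, are themselves targets. In basal-like breast cancer cells YAP and TAZ are known for links to invasion and stem-like growth. Their activity is set mostly by phosphorylation and location, which transcript levels do not report.

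Across the 35 genes the classic secreted target CYR61 and the target ANKRD1 were about halved in KO-labelled populations, while the co-activators YAP1 and WWTR1 themselves did not pass the test. The kinase genes STK3 and STK4 moved in opposite directions. The cofactor gene VGLL3 rose, though it stayed scarce. In all, 18 of the 35 passed the threshold (edgeR quasi-likelihood test, Benjamini-Hochberg adjusted p under 0.05 over 17420 genes), 51.4% against 40.8% of all genes tested. They divided into 6 higher (17.1%, against 21.0% of all genes) and 12 lower (34.3%, against 19.8%). Of the higher ones, VGLL3 and AXL had enough counts to be tested only in the KO-labelled group. The groups did not overlap for 19 of the 35 (54.3%), against 54.4% of all genes. The median log2 fold change was -0.19, against 0.01 over all genes, and 5 of the 35 passed with at least a 2-fold difference (14.3%, against 12.1%). In most of the 35 the size was small: the median size of the log2 fold change was 0.29, against 0.32 over all genes.

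These counts moved with the libraries used, as did those over all genes. Without population 11, 12 or OG they were 15, 16 and 24 of 35 (42.9%, 45.7% and 68.6%, against 37.2%, 34.5% and 52.6% of all genes tested in the same fits). The 24 without OG were 7 higher and 17 lower and held all 18 called with 6 libraries. Without well W1, W2 or W3 the counts were 8, 10 and 10 (22.9%, 28.6% and 28.6%), near or below the 27.7%, 27.3% and 29.6% of all genes. The p-values measure the spread between these libraries, which may be technical for wells of 1 plate.

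**Figure D1:**
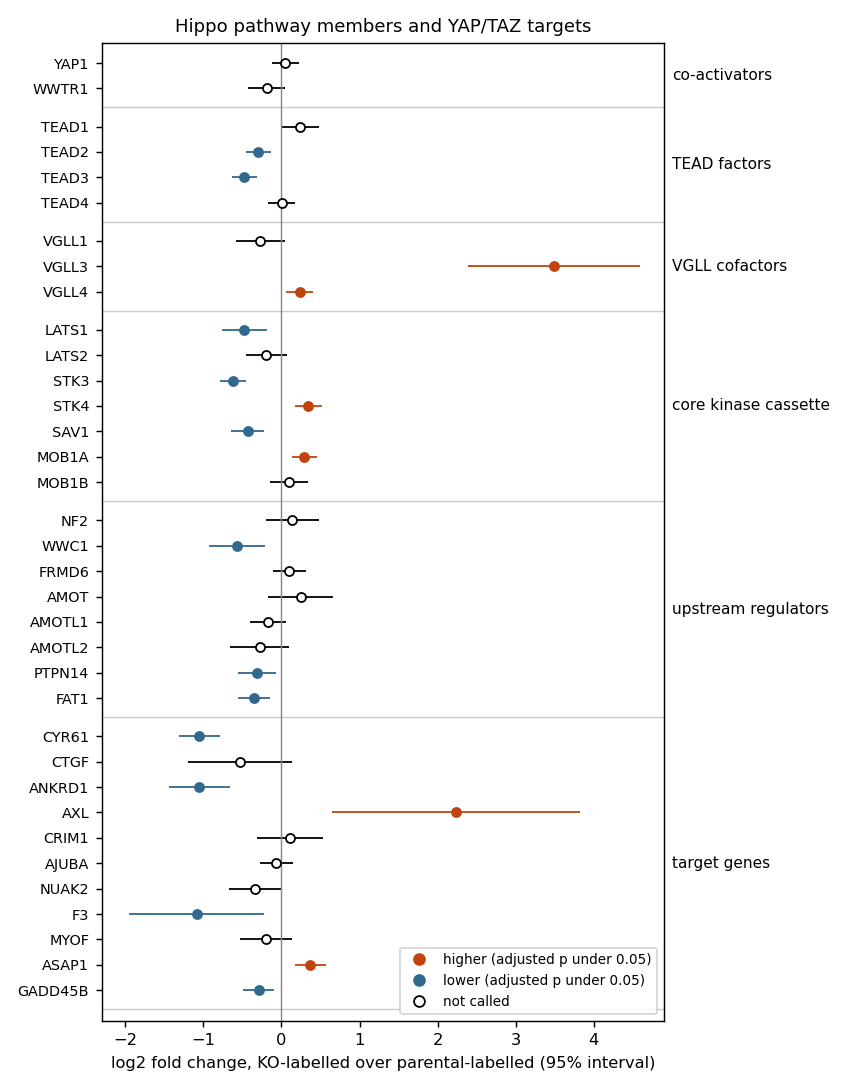
Log2 fold change of each of the 35 genes, KO-labelled over parental-labelled, with its 95% interval from the edgeR fit (n = 3 libraries each), grouped by role. CYR61, ANKRD1 and F3 lie near -1, VGLL3 and AXL lie above 2 with wide intervals, and most other points lie nearer to 0.

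YAP1, the co-activator YAP, had 286, 286 and 247 CPM in populations 11, 12 and OG, against 266, 271 and 254 CPM in wells W1, W2 and W3. The groups overlapped, with OG the lowest of all 6 libraries. The log2 fold change was 0.05 with a 95% interval of -0.13 to 0.23 (edgeR adjusted p = 0.631). Of the 20 neighbours of YAP1 on chromosome 11, tested protein-coding genes on both sides, 11 were called lower, with a median log2 fold change of -0.35. WWTR1, which encodes TAZ, had 112, 84.1 and 98.4 CPM in the same populations and 109, 115 and 112 CPM in the wells. Population 12 was the lowest. Its log2 fold change was -0.19 (interval -0.43 to 0.05, adjusted p = 0.176), and of the fits with a library left out it passed in the one without population 11, at -0.30 with an adjusted p of 0.0349. WWTR1 shares exonic sequence with an antisense gene, WWTR1-AS1, which had 13 to 27 counts in KO-labelled and 17 to 31 counts in parental-labelled libraries. On the authors' FPKM scale, which divides by transcript length and so allows genes to be compared, YAP1 made up 70.2% ± 4.38 of the summed level of both co-activators in KO-labelled and 65.7% ± 1.20 in parental-labelled libraries. The sum itself was 118 ± 6.91 and 116 ± 2.42 FPKM.

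The TEAD genes encode the DNA-binding partners of YAP and TAZ. TEAD3 fell, with 94.5, 85.6 and 86.2 CPM in KO-labelled populations, against 120.4, 120.4 and 129 CPM in parental-labelled wells. Every KO-labelled value lay below every parental-labelled one. The log2 fold change was -0.47 (SE 0.07, adjusted p = 0.00135). Of the 20 neighbours of TEAD3 on chromosome 6, 9 were called lower and 2 higher, with a median of -0.19, and their part was not tested. TEAD2 also fell, with 73.9, 66.5 and 69.3 CPM against 86.8, 85.5 and 84.9 CPM, a log2 fold change of -0.30 (SE 0.07, adjusted p = 0.0102). That call was lost without well W1 (adjusted p = 0.0521).

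TEAD1 had 153, 129 and 168 CPM in KO-labelled populations, against 132, 133 and 118 CPM in parental-labelled wells. The groups overlapped through population 12, and the log2 fold change of 0.23 (interval -0.01 to 0.48, adjusted p = 0.111) passed without that population, at 0.33 with an adjusted p of 0.0271. TEAD4 had 34.7, 31.9 and 34.7 CPM against 33.9, 33.8 and 33.2 CPM, a log2 fold change of 0.01 (interval -0.17 to 0.18) that took either sign with the processing. The summed FPKM of all 4 TEAD genes was 94.0 ± 6.49 in KO-labelled and 104 ± 3.06 in parental-labelled libraries, and the groups did not overlap. All 4 were present at like levels per length, from 18.8 ± 0.420 FPKM (TEAD4) to 29.3 ± 2.08 FPKM (TEAD2) in KO-labelled libraries, and from 16.8 ± 2.84 FPKM (TEAD1) to 35.1 ± 0.791 FPKM (TEAD2) in parental-labelled ones. TEAD3 held 28.3% ± 1.06 of the sum in KO-labelled and 33.2% ± 2.50 in parental-labelled libraries.

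VGLL proteins also bind TEADs, and VGLL4 is known to compete with YAP for them. VGLL3 rose, with 25, 37 and 50 counts (0.942, 1.31 and 1.79 CPM) in populations 11, 12 and OG, against 2, 6 and 2 counts (0.0660, 0.238 and 0.0643 CPM) in wells W1, W2 and W3. All KO-labelled values lay above all parental-labelled ones, and the log2 fold change was 3.50 (SE 0.48, adjusted p = 8.3e-04). The level stayed near 1 CPM in KO-labelled libraries, far under VGLL1 and VGLL4. VGLL3 had enough counts to be tested only in the KO-labelled group, where it is high. The fold rests on few parental-labelled counts and ranged from 3.17 to 4.28 with 1 library left out. VGLL4 rose slightly, to 48.8 ± 1.86 CPM in KO-labelled libraries, against 41.5 ± 1.64 CPM in parental-labelled ones (log2 fold change 0.23, adjusted p = 0.0349), a call lost without population 11 or any 1 of the wells (adjusted p of 0.0778 to 0.170), or with no filter on low counts (0.0982). An exon of VGLL4 overlaps ATG7 on the opposite strand in the GENCODE annotation. ATG7 had 464 to 555 counts in KO-labelled and 469 to 526 in parental-labelled libraries, and how the authors' counting treated strand is not given. VGLL1 had 179.9, 148 and 226 CPM against 219, 222 and 227 CPM. Population OG matched the wells and populations 11 and 12 lay below them, and the log2 fold change of -0.27 (adjusted p = 0.151) became -0.45 (adjusted p = 0.00121) without OG.

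In the core kinase cassette 5 of 7 genes were called (71.4%, against 40.8% of all genes). Of the 7, 2 were higher (28.6%, against 21.0%) and 3 lower (42.9%, against 19.8%). STK3, the gene of MST2, fell, with 31.4, 30.1 and 32.7 CPM in KO-labelled populations, against 47.6, 50.02 and 47.2 CPM in parental-labelled wells. Its paralogue STK4, the gene of MST1, rose, with 83.8, 78.8 and 88.0 CPM against 66.4, 68.7 and 62.6 CPM. For both, the groups were well separated, and the log2 fold changes were -0.62 (SE 0.07, adjusted p = 4.2e-04) for STK3 and 0.34 (SE 0.07, adjusted p = 0.00751) for STK4. Per length, STK3 made up 53.7% ± 0.616 of the summed FPKM of both genes in KO-labelled and 70.5% ± 0.513 in parental-labelled libraries. Their sum was 31.5 ± 2.55 and 36.0 ± 1.68 FPKM.

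SAV1, the scaffold that joins MST to LATS, fell to 34.97 ± 3.67 CPM in KO-labelled libraries, against 47.2 ± 1.92 CPM in parental-labelled ones (log2 fold change -0.43, SE 0.09, adjusted p = 0.00729). The SAV1 call was lost on both FPKM scales (limma adjusted p of 0.0657 and 0.0646). LATS1, a kinase that phosphorylates YAP, fell too. It had 46.0, 39.6 and 32.6 CPM in populations 11, 12 and OG, against 56.8, 56.7 and 50.9 CPM in the wells, with OG the lowest (log2 fold change -0.48, SE 0.13, adjusted p = 0.0176). The call was lost without well W1 or W2 (adjusted p of 0.0656 and 0.0637) and on both FPKM scales (0.0645 and 0.0599). LATS1 lies on chromosome 6 among genes that fell alike: of the 20 nearest tested protein-coding genes, 17 were called lower, with a median log2 fold change of -0.97. The part of that stretch in the LATS1 value was not tested. LATS2, the other LATS kinase, had 17.3, 14.4 and 18.2 CPM against 17.8, 20.4 and 18.9 CPM. The groups overlapped, and the log2 fold change was -0.19 (interval -0.46 to 0.07, adjusted p = 0.215).

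MOB1A, which encodes the LATS partner MOB1, rose to 229 ± 15.1 CPM in KO-labelled libraries, against 186 ± 5.34 CPM in parental-labelled ones (log2 fold change 0.29, SE 0.07, adjusted p = 0.0113). The call was lost without well W1 or W3 (adjusted p of 0.0622 and 0.0515). Of its 20 neighbours on chromosome 2, 13 were called higher, with a median of 0.55, and their part was not tested. MOB1B, the second MOB1 gene, was not called at 0.10 (interval -0.14 to 0.33). Per length, MOB1A held 92.4% ± 0.952 of the summed FPKM of both genes in KO-labelled and 92.2% ± 1.06 in parental-labelled libraries. The 2 genes are close in sequence, so counts split between them are less certain.

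**Figure D2:**
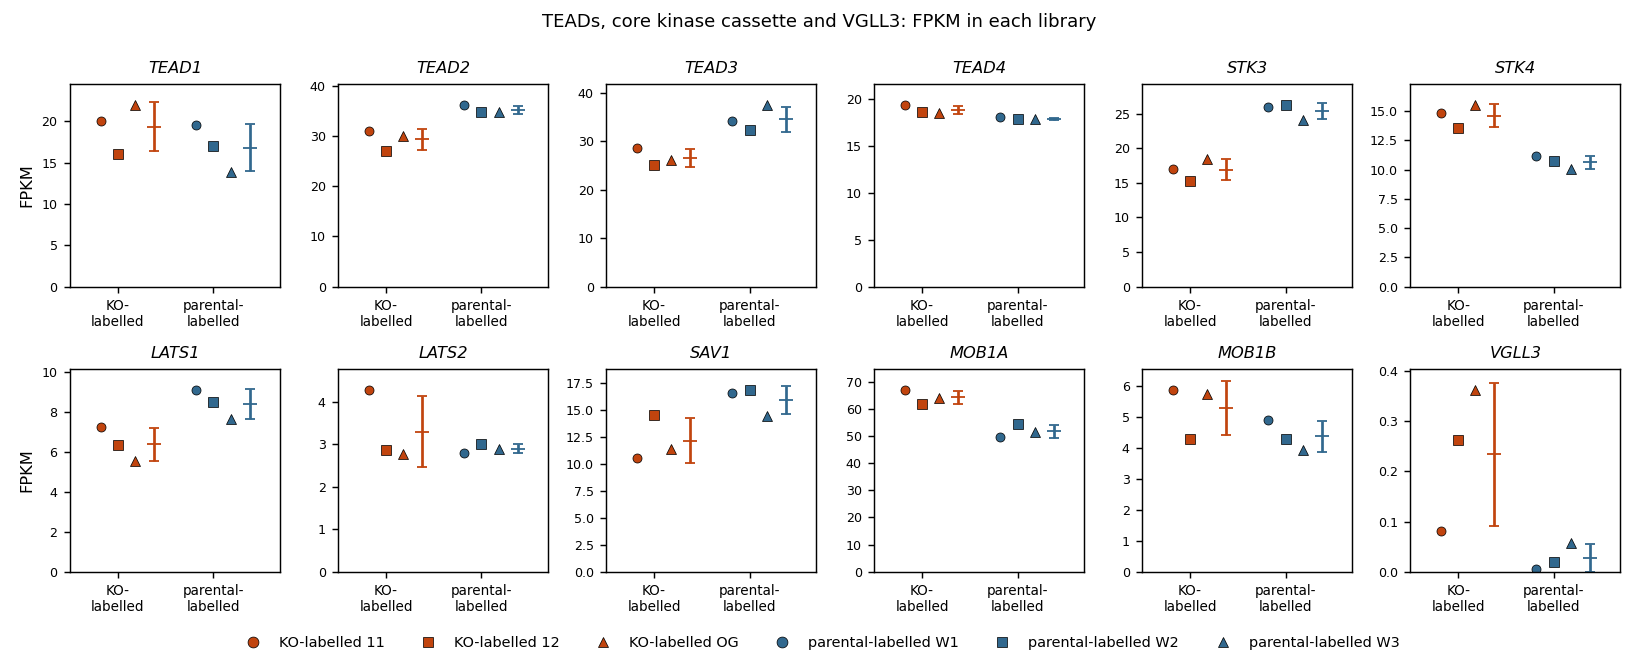
FPKM of the 4 TEAD genes, 7 genes of the core kinase cassette and VGLL3 in each KO-labelled (left) and parental-labelled (right) library, with mean and SD beside the points (n = 3 each). STK3 is lower and STK4 and MOB1A are higher in every KO-labelled population than in any parental-labelled well, and VGLL3 stays below 0.4 FPKM throughout.

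Upstream regulators sense contact, polarity and actin tension. Of 8 genes 3 fell (37.5%, against 19.8% of all genes) and none rose (against 21.0%). In all 37.5% were called, near the 40.8% of all genes. WWC1, which encodes the scaffold KIBRA, fell to 223, 168 and 278 CPM in populations 11, 12 and OG, against 331, 333 and 328 CPM in the wells (log2 fold change -0.57, SE 0.16, adjusted p = 0.0215). The wells lay close together and the populations spread widely, all of them below the wells. The call was lost without population 11 or any 1 of the wells (adjusted p of 0.0566 to 0.0645). FAT1, a giant atypical cadherin, fell to 736 ± 56.9 CPM, against 938 ± 76.8 CPM (log2 fold change -0.35, SE 0.09, adjusted p = 0.0137), a call lost without well W1 or W2 (adjusted p of 0.0639 and 0.0606). Of its 13 neighbours near the end of chromosome 4, 7 were called lower, with a median of -0.54, and their part was not tested. PTPN14, a phosphatase that binds YAP, was called lower from counts at -0.31 (SE 0.11, adjusted p = 0.0466). That call does not carry over to the authors' FPKM, where PTPN14 averaged 19.7 ± 2.79 in KO-labelled and 18.7 ± 1.58 in parental-labelled libraries, and it was lost without population 12 or any 1 of the wells (adjusted p of 0.0565 to 0.152). It was also lost with upper quartile scaling (0.0668), library totals (0.0787) and the 10 CPM filter (0.0573), and held in 7 of 17 alternative settings. Of its 20 neighbours on chromosome 1, 10 were called lower, with a median of -0.37, and their part was not tested.

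The remaining regulators were not called. NF2, the tumour suppressor merlin, had 61.2, 56.8 and 86.2 CPM in populations 11, 12 and OG, against 61.5, 62.0 and 62.1 CPM in the wells, so that OG alone stood above the rest (log2 fold change 0.14, adjusted p = 0.485). The angiomotin genes encode junction proteins that hold YAP in the cytoplasm. AMOTL2 had 143, 126 and 207 CPM against 183, 197 and 198 CPM. Population OG lay above the wells and populations 11 and 12 below them, and the log2 fold change was -0.28 (adjusted p = 0.212), and -0.52 (adjusted p = 2.0e-04) without OG. AMOT showed the reverse order, with 369.7, 247 and 211 CPM against 239.7, 237 and 222 CPM (0.25, adjusted p = 0.317, and 0.40 with an adjusted p of 0.0277 without OG). AMOTL1 was at -0.17 (interval -0.40 to 0.06) and FRMD6, which encodes the FERM protein willin, at 0.10 (interval -0.11 to 0.31). The summed FPKM of the angiomotin genes was 99.8 ± 13.6 in KO-labelled and 99.9 ± 0.439 in parental-labelled libraries.

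Target genes report the output of YAP, TAZ and TEAD. Of the 11, 4 fell (36.4%, against 19.8% of all genes), 2 rose (18.2%, against 21.0%) and 5 were not called. In all 54.5% were called, against 40.8% of all genes. CYR61, a secreted matricellular protein, fell, with 77.8, 60.1 and 83.2 CPM in populations 11, 12 and OG, against 152, 154 and 152 CPM in wells W1, W2 and W3. Every population lay far below every well. It was 2.07-fold lower (log2 fold change -1.05, SE 0.12, adjusted p = 2.9e-04) and passed under each of 17 alternative settings, at -1.15 to -0.92. ANKRD1, a muscle and stress ankyrin-repeat protein and one of the most used YAP reporters, fell as far from a lower level. It had 4.22, 3.11 and 4.86 CPM against 8.84, 8.66 and 7.81 CPM, 2.08-fold lower (log2 fold change -1.05, SE 0.17, adjusted p = 0.00186), and passed in each of the 16 settings in which it was tested. Neighbours of CYR61 and ANKRD1 had median log2 fold changes of -0.04 and 0.02.

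F3, the tissue factor that starts blood clotting, had 33.7, 41.8 and 106 CPM in populations 11, 12 and OG, against 134, 131 and 121 CPM in the wells. Populations 11 and 12 lay far below the wells and OG just below them. The call was marginal (log2 fold change -1.09, SE 0.37, adjusted p = 0.0489) and held in 3 of 17 alternative settings, with an adjusted p of 0.0501 for RLE in place of TMM scaling and 0.0925 for DESeq2. Without OG it was -1.77 (adjusted p = 6.8e-07), without population 11 or 12 -0.80 and -0.88 (adjusted p of 0.111 and 0.150), and without a well it lay between -1.14 and -1.06 (adjusted p of 0.108 to 0.115). Of the 20 neighbours of F3, 8 were called lower, with a median of -0.31, and their part was not tested. GADD45B, a stress-response protein, fell to 34.3 ± 2.29 CPM, against 42.0 ± 2.71 CPM (log2 fold change -0.29, adjusted p = 0.0281). That call held without OG and was lost without any 1 of the other 5 libraries (adjusted p of 0.0543 to 0.0988), and on both FPKM scales (0.0681 and 0.0689).

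CTGF, the close relative of CYR61 and the most cited target, had 3.32, 4.99 and 8.18 CPM in populations 11, 12 and OG, against 7.03, 9.50 and 7.46 CPM in the wells. Population OG lay among the wells and the others below them. The log2 fold change of -0.53 (interval -1.20 to 0.14) did not pass (adjusted p = 0.179), and was -0.93 (SE 0.20, adjusted p = 0.00306) without OG. CTGF was scarce in this line: per length it averaged 2.11 ± 0.930 FPKM in KO-labelled and 2.94 ± 0.435 FPKM in parental-labelled libraries, against 28.7 ± 4.76 and 57.2 ± 0.736 FPKM for CYR61. NUAK2, a kinase that sustains YAP activity, had 9.61, 10.04 and 13.5 CPM against 13.7, 13.6 and 14.7 CPM. The groups did not overlap, though OG almost reached the lowest well, and the log2 fold change was -0.34 (adjusted p = 0.0932), and -0.51 (adjusted p = 0.00154) without OG. MYOF, the membrane repair protein myoferlin, had 554, 681 and 867 CPM against 820.4, 820.7 and 766 CPM, with OG the highest library and the other populations below the wells (-0.20, adjusted p = 0.313, and -0.38 with an adjusted p of 0.00376 without OG). AJUBA, a LIM protein that restrains LATS, was at -0.07 (interval -0.28 to 0.14).

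AXL and ASAP1 went the other way. AXL, a receptor tyrosine kinase linked to mesenchymal traits, had 14, 16 and 57 counts (0.528, 0.566 and 2.04 CPM) in populations 11, 12 and OG, against 8, 5 and 6 counts (0.264, 0.199 and 0.193 CPM) in the wells. All populations lay above all wells, and OG was far above the rest. AXL had enough counts to be tested only in the KO-labelled group, where it is high. The log2 fold change was 2.23 (SE 0.69, adjusted p = 0.0327), and 1.30 (adjusted p = 0.0128) without OG. It was lost without any 1 of the wells (adjusted p of 0.0808 to 0.111) and on the FPKM scale, and the level stayed low throughout. ASAP1, an ARF GTPase-activating protein, rose to 91.3 ± 8.89 CPM, against 70.6 ± 2.97 CPM (log2 fold change 0.37, SE 0.09, adjusted p = 0.0107). The ASAP1 call was lost without well W3 (adjusted p = 0.0570). CRIM1, a membrane protein that binds BMPs, had 249.6, 207 and 365 CPM against 257, 266 and 237 CPM. Its groups overlapped (0.11, interval -0.31 to 0.54), with OG the highest library and the sign negative without it, at -0.15. Of its 20 neighbours on chromosome 2, 14 were called higher, with a median of 0.54.

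**Figure D3:**
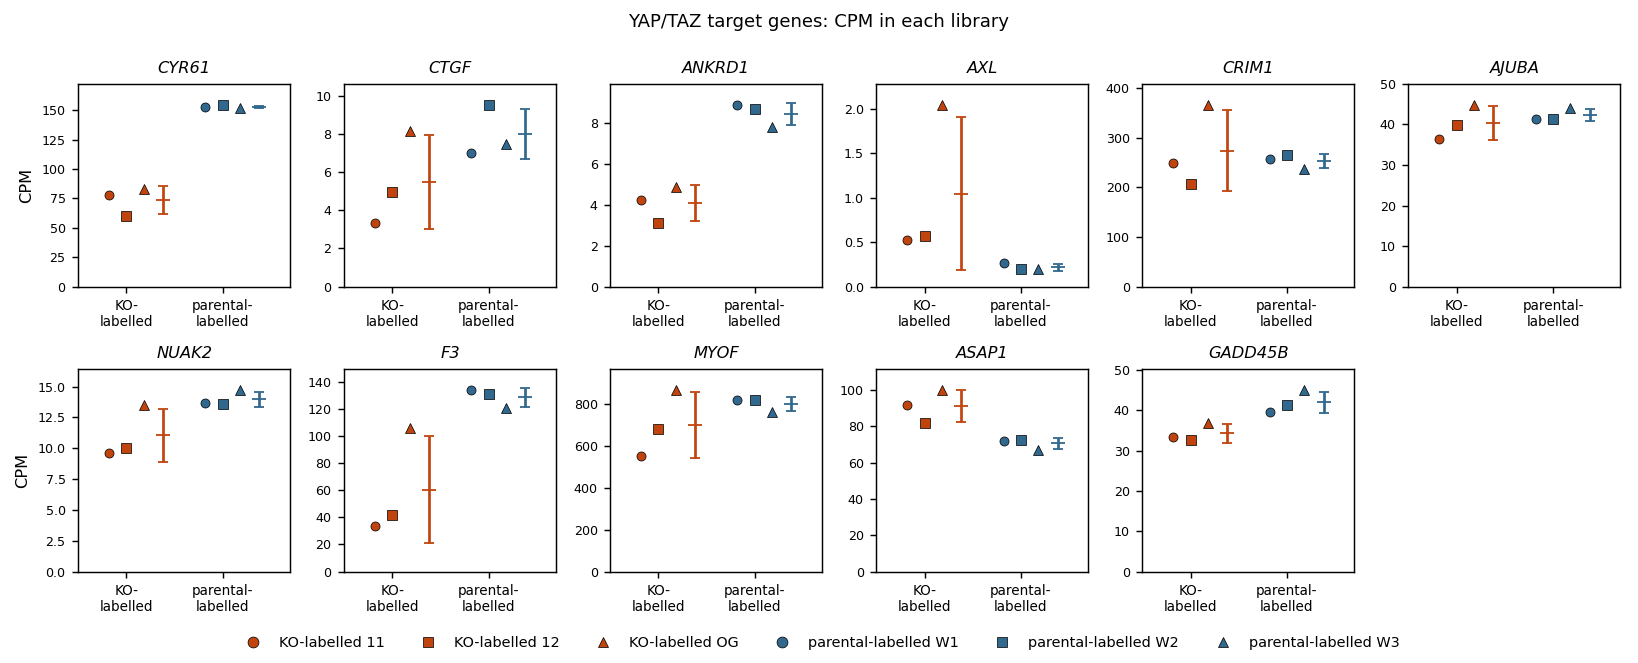
CPM of the 11 target genes in each KO-labelled (left) and parental-labelled (right) library, with mean and SD beside the points (n = 3 each, each axis from 0). CYR61 and ANKRD1 are lower in all 3 KO-labelled populations, and the triangle of population OG is the highest KO-labelled point in every panel.

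The start regions of 4 target genes are shown because they hold the letters that TEAD or AP-1 proteins, which often act together on YAP targets, are known to bind. The sequences are RefSeq promoter windows on GRCh38.p14, 250 bases before to 50 bases after the annotated start, on the gene's strand. This is a later build than the hg19 named in the submitters' processing notes, so their positions were joined to nothing in the files. Capitals mark the TEAD core GGAATG on either strand (CATTCC on the other) and the AP-1 site TGANTCA, which reads alike on both strands, and no marked sites overlapped. CTGF is at chr6:131951323-131951622, ANKRD1 at chr10:90921038-90921337, NUAK2 at chr1:205321696-205321995 and F3 at chr1:94541710-94542009, all on the minus strand.
CTGF: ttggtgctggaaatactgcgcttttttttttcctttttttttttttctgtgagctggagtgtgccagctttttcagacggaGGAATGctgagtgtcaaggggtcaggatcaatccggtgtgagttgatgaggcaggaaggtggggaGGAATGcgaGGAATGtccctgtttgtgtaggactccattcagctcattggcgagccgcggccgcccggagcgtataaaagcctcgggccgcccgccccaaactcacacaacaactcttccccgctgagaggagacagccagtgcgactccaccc
ANKRD1: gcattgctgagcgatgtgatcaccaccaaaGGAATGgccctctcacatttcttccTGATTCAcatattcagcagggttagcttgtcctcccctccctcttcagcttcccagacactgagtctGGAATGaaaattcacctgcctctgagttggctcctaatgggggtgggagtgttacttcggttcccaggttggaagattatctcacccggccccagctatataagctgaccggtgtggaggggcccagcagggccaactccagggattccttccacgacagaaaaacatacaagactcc
NUAK2: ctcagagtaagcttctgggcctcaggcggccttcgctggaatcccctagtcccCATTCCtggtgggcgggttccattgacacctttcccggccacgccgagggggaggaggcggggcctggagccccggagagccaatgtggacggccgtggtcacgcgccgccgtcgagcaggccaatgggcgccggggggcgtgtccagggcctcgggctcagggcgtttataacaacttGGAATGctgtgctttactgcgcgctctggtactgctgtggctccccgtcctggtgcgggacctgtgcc
F3: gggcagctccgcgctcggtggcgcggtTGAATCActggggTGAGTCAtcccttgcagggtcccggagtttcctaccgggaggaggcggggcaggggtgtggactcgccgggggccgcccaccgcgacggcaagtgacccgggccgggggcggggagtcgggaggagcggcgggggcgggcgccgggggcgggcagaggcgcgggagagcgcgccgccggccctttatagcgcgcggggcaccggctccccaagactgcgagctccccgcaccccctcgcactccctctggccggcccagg

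CTGF held 3 TEAD cores, whose first bases lie 169, 104 and 95 bases before the start. A window with 3 or more occurred in 0.123% of the 34943 promoter windows in the RefSeq table. ANKRD1 and NUAK2 held 2 each, and 1.36% of windows held 2 or more. ANKRD1 also held an AP-1 site. F3 held none but had 2 AP-1 sites, 223 and 210 bases before its start. Windows were listed for 29 of the 35 genes (not for TEAD1, TEAD4, STK3, CYR61, CRIM1 and ASAP1). Of their 42 windows 10 held a TEAD core (23.8%, against 14.0% of all windows) and 4 an AP-1 site (9.52%, against 7.72%). Among the 10 windows of target genes 5 held a TEAD core (50%). A match describes letters only. CTGF and NUAK2 hold these cores and did not pass the test with all libraries, while ANKRD1 holds them and passed.

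Population OG differed from populations 11 and 12 across the targets. For 11 of the 11 target genes OG was above both of the others in log2 CPM, as it was for 24 of all 35 members (68.6%) and for 37.9% of all genes tested. The 24 include the 11 targets. Whatever its sign, the difference of OG from the mean of 11 and 12 had a median size of 0.230 over the 35 and 0.226 over all genes. It was over 0.5 for 25.7% of the 35 and 21.2% of all genes. The median difference between OG and the mean of 11 and 12 was 0.46 over the targets and -0.01 over all genes. F3 differed by 1.497, CTGF by 0.99 and AXL by 1.77. Relative to the parental-labelled mean, CTGF lay at 0.04 in OG and at -0.95 in the mean of 11 and 12, and CYR61 at -0.88 and -1.16. OG is 1 library, so these differences have no replicate check. The median SD of log2 CPM over the 35 genes was 0.20 in the KO-labelled and 0.06 in the parental-labelled group, and 31 of 35 (88.6%) varied more in the KO-labelled group, against 76.3% of all genes.

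**Figure D4:**
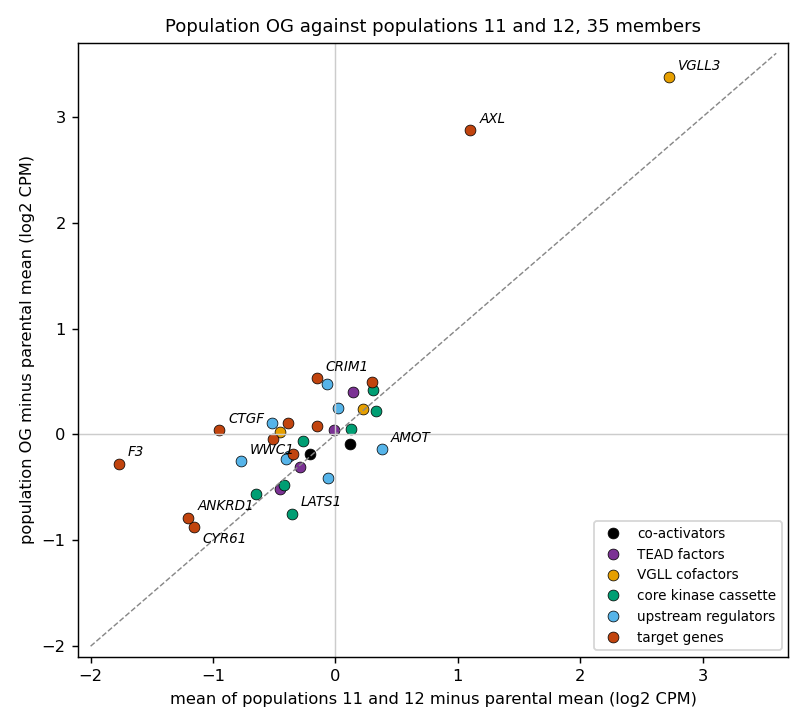
Difference of each of the 35 genes from the parental-labelled mean in log2 CPM, for population OG (vertical) against the mean of populations 11 and 12 (horizontal), coloured by role; on the dashed line both are equal. All 11 target genes lie above the line, F3 and CTGF far above it, while CYR61 and ANKRD1 are below 0 on both axes.

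Further genes tied to the pathway were counted from lists. Of other upstream regulators and subunits of STRIPAK, the phosphatase complex that keeps MST inactive, 48 of 52 were tested: 16 were higher, 4 lower and 28 not called. That is 41.7% called, near the 40.8% of all genes, but 33.3% were higher, against 21.0%, and 8.33% lower, against 19.8%. The median log2 fold change was 0.08. TAOK3, a kinase that can activate MST, fell, with 55.5, 55.9 and 55.0 CPM in KO-labelled populations against 90.7, 89.3 and 86.0 CPM in parental-labelled wells (log2 fold change -0.68, SE 0.06, adjusted p = 1.3e-04). The STRIPAK genes STRIP2 and MOB4 fell too, by 1.505 (SE 0.16) and 0.78 (SE 0.11) on the log2 scale. Higher were the polarity gene LLGL2 at 0.76 (SE 0.08), RASSF2, which binds MST, at 1.48 (SE 0.16) and NUAK1, a relative of NUAK2, at 1.29 (SE 0.15). Adjusted p-values of these 6 were 1.3e-04 to 0.00102 in the edgeR test. In this list OG lay above both other populations for 16 of the 48 tested genes (33.3%, against 37.9% of all genes).

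Of further genes described as YAP or TAZ targets 37 of 43 were tested, of which 9 were higher, 10 lower and 18 not called. That is 51.4% called, against 40.8% of all genes (24.3% higher, against 21.0%, and 27.0% lower, against 19.8%). The median log2 fold change was -0.23. The growth factor gene TGFB2 fell, with 34.6, 28.4 and 58.8 CPM in populations 11, 12 and OG against 152, 158 and 146 CPM in the wells (log2 fold change -1.90, SE 0.24, adjusted p = 5.3e-04). DOCK5, a RAC exchange factor, and GAS6, the ligand of AXL, fell by 0.49 (SE 0.09) and 0.55 (SE 0.10) on the log2 scale. The forkhead gene FOXF2 rose to 134, 143 and 197 counts, against 5, 0 and 3 counts in the wells. It had enough counts to be tested only in the KO-labelled group. The kinase SGK1 rose to 27.5 ± 6.92 CPM, against 7.35 ± 0.624 CPM, and the Wnt inhibitor DKK1 to 36.8 ± 5.70 CPM, against 16.8 ± 0.995 CPM. Adjusted p-values of these 6 were 3.2e-05 to 0.00310 in the edgeR test. In this list OG lay above both other populations for 23 of the 37 tested genes (62.2%, against 37.9% of all genes).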

How the data were processed

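Polyadenylated RNA of 6 MDA-MB-468 cultures was made into libraries with a directional kit, per the labels' protocols. The authors deposited raw counts per gene symbol and FPKM values, 1 column per library. The build hg19 and the tools Cufflinks 2.0.2, STAR 2.4.0f1 and SAMtools 0.1.19 come from the submitters' processing notes, with no roles stated. The annotation, counting program, strand setting and filters: not given in the sources used here. If reads with several placements were dropped, near-identical genes are undercounted.

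Counts were tested with edgeR 4.0.16 in R 4.3.3 (filterByExpr with minimum count 10 and total 15, TMM, quasi-likelihood F test, Benjamini-Hochberg over 17420 genes, threshold 0.05), with all 6 libraries and no covariate, and the code was tested on simulated data. SE is the log2 fold change over the square root of F, and intervals are 95% t intervals. One count was worth 0.0321 to 0.0397 CPM with TMM factors. Alternatives were RLE, upper quartile and total scaling, no filter or 10 CPM in 3 samples, DESeq2 1.42.0, limma 3.58.1 (voom, and log2(FPKM + 1) or log2(FPKM + 0.1) for genes of at least 0.1 FPKM in 3 samples), a legacy robust fit, a test against a 1.5-fold change, and leaving out each library. Log2 CPM used a prior count of 2. Neighbours are the 10 nearest tested protein-coding genes on each side in RefSeq order (GRCh38.p14). Overlapping genes come from GENCODE 29.

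The members and lists were chosen with earlier results of these data known. Full values are given for called members of at least 2-fold and for the co-activators, TEAD, LATS, NF2, CYR61, CTGF, ANKRD1 and AMOTL2 genes. From each further list the 3 called genes with the smallest p in each direction are named. Other members' per-library values were added after they were seen. Genes of those lists that are not in the count table were not analysed here.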

Additional observations from a re-analysis of the deposited data

How the results depend on the processing

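CYR61, ANKRD1 and VGLL3 passed in every setting in which they were tested, and TEAD3, STK3 and STK4 in all but the test against a 1.5-fold change. VGLL3 met the default filter on low counts only through the KO-labelled group, so its passing is no separate support for a rise. The test against a 1.5-fold change called 1923 genes (1019 higher, 904 lower) and 3 of the 35 members (1 higher, 2 lower), 8.6% against 11.0% of all genes. With limma on either FPKM scale 11 of 34 members passed (32.4%), 7 of them lower, against 28.1% and 28.4% of all genes. With a library left out 8 to 24 members passed, 2 to 7 higher and 5 to 17 lower (22.9% to 68.6%), while 4879 to 9367 of all genes passed (27.3% to 52.6%), and GPR52 kept its direction and call at 7.07 to 10.12. Some members that did not pass changed sign. TEAD4 was at -0.0106 with no filter, -0.00062 in DESeq2 and -0.0157 to 0.0453 with a library left out. LATS2 was at 0.12 and 0.15, and AJUBA at 0.0504 and 0.0535, on the FPKM scales. With a library left out MOB1B ranged over -0.0051 to 0.15, AMOT over -0.0254 to 0.40, NF2 over -0.0704 to 0.25 and CRIM1 over -0.15 to 0.28, lowest without W3 (MOB1B), population 11 (AMOT) and OG (NF2 and CRIM1). PTPN14, lower from counts, was at 0.0613 and 0.0639 on the FPKM scales. The causes were not tested. The 10 CPM filter left no value for VGLL3, AXL, CTGF and ANKRD1, and the FPKM filter none for VGLL3. No paired analysis was possible because the labels do not link the population titles 11, 12 and OG to the wells W1, W2 and W3. At 1 CPM, as for VGLL3 and AXL, a library holds few counts, which makes the size of those folds uncertain.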
